A study of Mus musculus with 6 samples.

Results

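Neutrophil receptor and granule genes were followed in the ear skin of Ufl1 knockout and control mice. The set comprised 10 genes of the 54532 in the deposited table, taken by gene symbol. It held the receptors of mature neutrophils Cxcr2 and Csf3r, the late granule and late maturation genes Mmp8, Mmp9, Ly6g, Retnlg, Camp and Ltf, and the early granule genes Mpo and Elane. Libraries had been made from total RNA of whole ear skin of mice 3 months old, 3 libraries per group. The Ufl1 cKO mice carried the genotype Ufl1f/f KRT14Cre/+, in which Cre under the keratin 14 promoter deletes floxed Ufl1 in keratinocytes of the basal layer and in their descendants. The control mice were Ufl1f/+ or Ufl1f/f without Cre, so a floxed allele was common to both groups and an effect of Cre itself cannot be told apart from the loss of Ufl1. Ufl1 is the ligase that attaches the ubiquitin-like protein UFM1 to its substrates. Neutrophils do not descend from keratin 14 lineage cells. In whole skin a change in the number of neutrophils and a change in RNA per neutrophil cannot be told apart.

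Neutrophils form in the bone marrow and load their granules in order, and the transcripts of the granule proteins follow that order. Mpo and Elane are transcribed in promyelocytes, Camp and Ltf in myelocytes, and Mmp8 and Mmp9 later still, whereas Cxcr2 and Csf3r remain transcribed in mature cells. Neutrophils that have left the marrow carry little Mpo or Elane RNA. Resting skin holds few neutrophils, and they enter it along gradients of chemokines that bind CXCR2.

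Total counts were 17256339 to 20776539 per library, and the libraries of a group differed by more than sampling noise (lowest chi-square over its degrees of freedom, 16.6). No batch is named in the labels, nor whether libraries come from different mice, so the p-values reflect only library-to-library spread, which may be technical. Mitochondrial genes took 2.49% to 2.71% of the counts in cKO libraries and 2.28% to 4.59% in control libraries. Ufl1 itself stood at 34.8, 35.6 and 38.7 CPM (counts relative to the TMM-scaled library size) in cKO 1 to 3, against 57.8, 46.9 and 46.0 CPM in controls 1 to 3. Its groups did not overlap, while the adjusted p was 0.778 in edgeR's quasi-likelihood test.

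All 10 genes had at least 1 count in some library, and 5 of them (Cxcr2, Csf3r, Mmp8, Mmp9 and Mpo) passed the filter on low counts, which asks for about 0.539 CPM in 3 libraries. Mmp8 reached that level in cKO libraries only and Mpo in control libraries only, so these 2 entered the test through the group in which they were high. Elane, Ly6g, Retnlg, Camp and Ltf did not pass and are given as counts. Two-sided edgeR testing with Benjamini-Hochberg adjustment over 17318 genes called 0 of the 5 tested genes at an adjusted p under 0.05. It called 0.0115% of all genes as higher and 0.00577% as lower. At an unadjusted p under 0.05 there were 4 higher members (Cxcr2, Csf3r, Mmp8 and Mmp9), where the share of all genes was 3.38%, and 1 lower member (Mpo), where the share was 1.95%. DESeq2 called 0 members higher (0.387% of all genes) and 1 lower, Mpo (0.139% of all genes). Log2 fold changes were positive for 4 of the 5 tested members (47.8% of all tested genes) and negative for 1 (52.2%). Over all 10 members without a filter, 5 were positive (47.9% of 30720 genes) and 5 negative (52.1%), with a median of 0.57 against -0.02 over all genes. Of the 5 tested members, 4 were highest in cKO 1 (13.8% of all tested genes), and 3 of these stood there above 2 times the next library (0.508%). Without cKO 1, unadjusted p under 0.05 was left for 1 higher member, Cxcr2 (1.82% of all genes), and 1 lower, Mpo (0.924%), with 0 called after adjustment. The plot of CPM by library shows the values behind these counts.

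**Figure D1:**
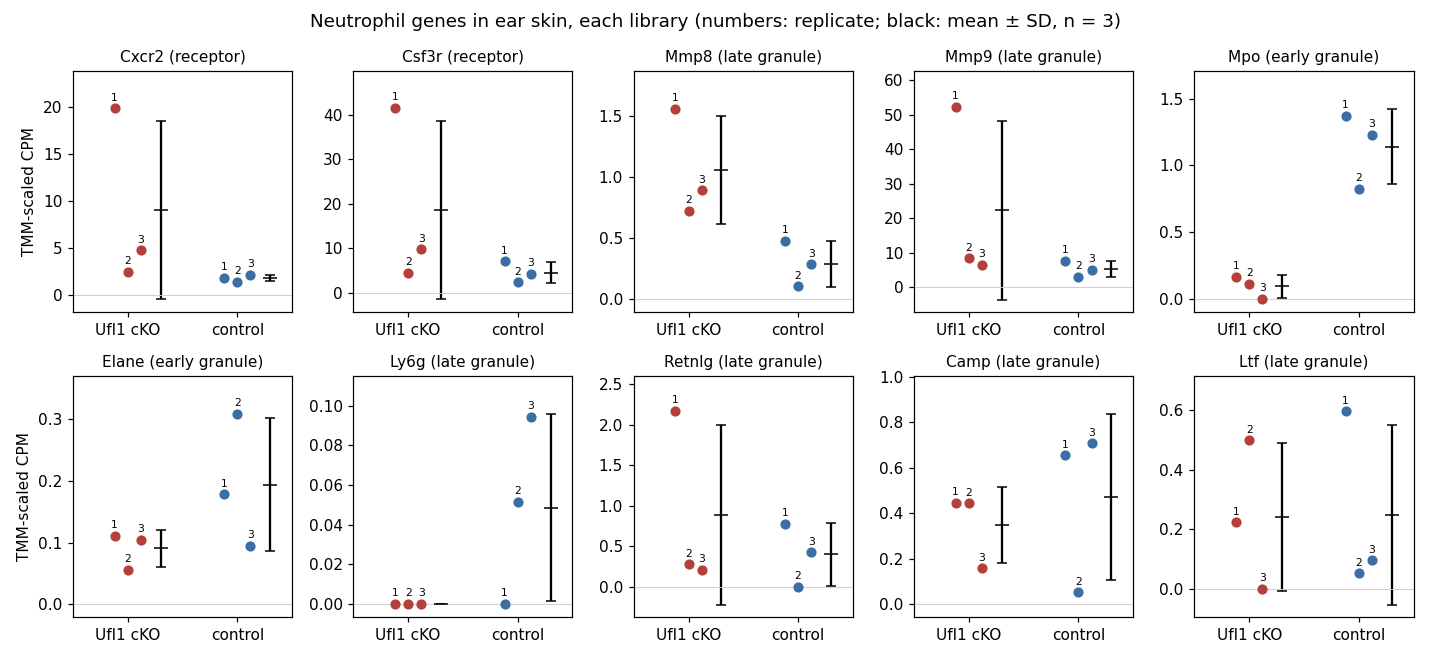
Each panel plots 1 gene in TMM-scaled CPM (y axis, linear, own scale) for the 3 Ufl1 cKO libraries (red, left) and the 3 control libraries (blue, right), with replicate numbers beside the points and the mean ± SD in black. cKO 1 lies above the other libraries for Cxcr2, Csf3r, Mmp8, Mmp9 and Retnlg, and all cKO libraries lie below all controls for Mpo.

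The start regions of the tested genes are shown because the fold changes of the receptors and of Mpo had opposite signs. RefSeq windows of 300 bases (250 before the start of transcription and 50 from it, build GRCm38.p6) were matched for 9 of the 10 genes, and Mmp9 had none. Each was searched on both strands for TTGCNNAA, a core of C/EBP sites, and GAGGAA, a core bound by ETS factors such as PU.1. Both factors are known regulators of granulocyte genes. Capitals mark the matches, and each sequence runs 5′ to 3′ on the gene's own strand. The windows lie at chr1:74153744-74154043 (plus strand) for Cxcr2, chr4:126024409-126024708 (plus strand) for Csf3r, chr9:7558179-7558478 (plus strand) for Mmp8 and chr11:87793534-87793833 (plus strand) for Mpo.
Cxcr2: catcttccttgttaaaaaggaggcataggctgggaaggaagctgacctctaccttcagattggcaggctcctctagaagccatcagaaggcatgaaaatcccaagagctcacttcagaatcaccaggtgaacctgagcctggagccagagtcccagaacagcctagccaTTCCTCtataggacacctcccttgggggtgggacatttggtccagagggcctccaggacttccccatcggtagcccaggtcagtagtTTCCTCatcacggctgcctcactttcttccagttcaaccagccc
Csf3r: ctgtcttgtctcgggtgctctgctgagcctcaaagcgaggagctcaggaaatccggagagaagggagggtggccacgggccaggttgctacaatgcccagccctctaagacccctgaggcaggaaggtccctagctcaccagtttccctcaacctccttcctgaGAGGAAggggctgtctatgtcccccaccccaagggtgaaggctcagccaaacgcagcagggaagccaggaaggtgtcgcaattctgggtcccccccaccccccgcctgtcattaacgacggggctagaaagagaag
Mmp8: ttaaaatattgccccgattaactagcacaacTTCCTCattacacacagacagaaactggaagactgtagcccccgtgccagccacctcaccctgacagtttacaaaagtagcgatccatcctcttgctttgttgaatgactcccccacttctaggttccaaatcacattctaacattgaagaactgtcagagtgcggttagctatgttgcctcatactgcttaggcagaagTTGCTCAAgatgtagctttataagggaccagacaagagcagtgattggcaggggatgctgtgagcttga
Mpo: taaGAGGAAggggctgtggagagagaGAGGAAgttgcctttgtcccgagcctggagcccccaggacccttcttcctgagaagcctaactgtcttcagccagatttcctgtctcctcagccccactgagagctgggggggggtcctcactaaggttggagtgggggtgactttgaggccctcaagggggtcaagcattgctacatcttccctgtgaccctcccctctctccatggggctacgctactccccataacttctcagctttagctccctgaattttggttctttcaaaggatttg
In Cxcr2 the ETS core began at base -81 and again at base 7, counted from the transcription start as base 1. In Csf3r it began at base -86, and in Mpo it began at bases -247 and -224. Mmp8 held an ETS core at base -219 and a C/EBP core, TTGCTCAA, at base -19. Over the 10 windows of the 9 genes (Ly6g has 2), the C/EBP core was present in 4, against 10.8% of 32851 mouse windows, and the ETS core in 8, against 28.3% of them. The 2 Ly6g windows overlap. By gene, the C/EBP core was present in 4 of the 9 and the ETS core in 7. No C/EBP match overlapped an ETS match. Positions hold for the RefSeq start, which lies downstream of the gene start in the deposited table for Cxcr2, Csf3r and Mpo and upstream of it for Mmp8. Both Mpo matches also precede the gene start in that table. These are matches of letters and not measured binding.

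Both receptor genes were higher in cKO 1 than in every other library. Cxcr2 (ENSMUSG00000026180, chromosome 1, 74153989 to 74161246, plus strand, mm10) encodes the receptor through which neutrophils follow CXCL1, CXCL2 and CXCL5. It had 19.9, 2.49 and 4.76 CPM in cKO 1 to 3, against 1.85, 1.44 and 2.17 CPM in controls 1 to 3. All cKO libraries lay above all controls, and cKO 1 stood 4.19 times above the next library, cKO 3 (exact 95% interval 3.32 to 5.33, counting error only). Its mean was 9.06 ± 9.48 CPM in cKO and 1.82 ± 0.365 CPM in control libraries (SD, n = 3 each). In edgeR the log2 fold change came to 2.31 (SE 0.72), and the adjusted p = 0.811 followed from an unadjusted p = 0.0125. An exact two-sided permutation test returned 0.1, the lowest p possible with 3 libraries a group. DESeq2 gave an adjusted p of 0.0676 and the authors' deposited table one of 0.0455, where 0.204% of the genes with a value were higher at an adjusted p under 0.05. Without cKO 1 edgeR put the log2 fold change at 0.99 (SE 0.41, adjusted p = 0.9998, unadjusted p = 0.0470). The other 2 cKO libraries still exceeded each control, but cKO 2 was close to control 3, at 45 against 46 counts. Their exact 95% intervals overlapped, at 1.82 to 3.34 CPM in cKO 2 and 1.59 to 2.89 CPM in control 3. Without control 2 the edgeR log2 fold change was 2.16 (SE 1.02, unadjusted p = 0.0868).

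Csf3r (ENSMUSG00000028859, chromosome 4, 126024550 to 126044440, plus strand) encodes the receptor of granulocyte colony-stimulating factor, which sustains neutrophil production and survival. It was measured at 41.6, 4.43 and 9.78 CPM in cKO 1 to 3, against 7.03, 2.32 and 4.20 CPM in controls 1 to 3. cKO 1 again stood apart, at 4.26 times the next library (exact 95% interval 3.62 to 5.02, counting error only), while cKO 2 lay within the range of the controls. The means were 18.6 ± 20.1 CPM in cKO and 4.51 ± 2.37 CPM in control libraries (SD, n = 3 each). The log2 fold change was 2.05 in edgeR (SE 0.79; unadjusted p = 0.0314, adjusted p = 0.871, exact permutation p = 0.2), and it was 0.66 (SE 0.53) without cKO 1. In the added DESeq2 fits that left out 1 library each, Cxcr2 and Csf3r were called higher without cKO 2 (adjusted p = 0.00160 and 0.0151). The other 5 fits gave adjusted p of 0.0752 to 0.9999 for Cxcr2 and 0.369 to 0.9999 for Csf3r, and with all libraries Csf3r had 0.756.

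Across the 6 libraries the proportion of the 2 receptor transcripts varied less than their levels, but among the controls it varied about as much. There were 47.9, 56.3 and 48.7 Cxcr2 counts per 100 Csf3r counts in cKO 1 to 3, against 26.3, 62.2 and 51.7 in controls 1 to 3. Control 1 was lowest, and its exact 95% interval of 17.1 to 39.3 overlapped those of cKO 2, cKO 3, control 2 and control 3 but not that of cKO 1, 42.1 to 54.4. The summed receptor level was 61.5, 6.93 and 14.5 CPM in cKO 1 to 3 and 8.87, 3.76 and 6.37 CPM in controls 1 to 3. cKO 1 held 74.1% of the sum over the cKO libraries.

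Of the late granule genes, Mmp9 and Mmp8 had higher cKO means, Retnlg was high in cKO 1 alone, and Camp, Ltf and Ly6g showed no detectable difference. Mmp9 (ENSMUSG00000017737, chromosome 2, 164940780 to 164955850, plus strand) encodes gelatinase B of the tertiary granules and is also made by macrophages and wounded keratinocytes. It had 52.3, 8.37 and 6.43 CPM in cKO 1 to 3, against 7.74, 2.93 and 5.05 CPM in controls 1 to 3. cKO 1 was 6.24 times the next library, cKO 2 (exact 95% interval 5.25 to 7.46, counting error only), and cKO 3 lay within the control range. Mean CPM was 22.4 ± 25.9 in cKO and 5.24 ± 2.41 in control libraries (SD, n = 3 each). The log2 fold change was 2.10 in edgeR (SE 0.80; unadjusted p = 0.0304, adjusted p = 0.866, exact permutation p = 0.2) and 0.50 (SE 0.42) without cKO 1. DESeq2 gave an adjusted p of 0.734 with all libraries. In the added fits it was called higher without cKO 3 (adjusted p = 0.0450), and the other 5 fits gave adjusted p of 0.398 to 0.9999.

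Mmp8 (ENSMUSG00000005800, chromosome 9, 7558456 to 7568485, plus strand) encodes neutrophil collagenase and was the most even of the higher members. Its counts were 28, 13 and 17 in cKO 1 to 3, against 8, 2 and 6 in controls 1 to 3. That corresponded to 1.56, 0.721 and 0.889 CPM in the cKO libraries and 0.476, 0.103 and 0.283 CPM in the controls. The groups did not overlap, and cKO 1 exceeded cKO 3 by 1.75 times, with an exact 95% interval of 0.926 to 3.41 that includes no difference. The cKO mean was 1.06 ± 0.443 CPM and the control mean 0.287 ± 0.187 CPM (SD, n = 3 each). The log2 fold change was 1.88 in edgeR (SE 0.59; unadjusted p = 0.0128, adjusted p = 0.811, exact permutation p = 0.1), and 1.49 (SE 0.64) without cKO 1. Mmp8 had passed the filter through the cKO libraries only, so these tests are not independent of its high cKO values. Groups without overlap were seen for 5.73% of all tested genes with the cKO higher and for 4.80% with the cKO lower.

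**Figure D2:**
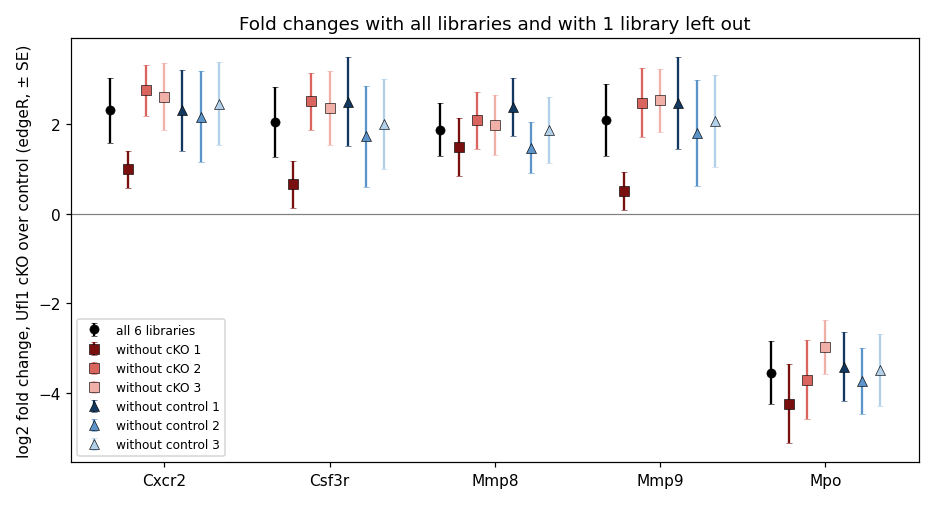
Log2 fold changes of Ufl1 cKO over control from edgeR (y axis, bars ± SE) for the 5 tested genes (x axis), with all 6 libraries (black circles) and with each cKO (red squares) or control library (blue triangles) left out. Leaving out cKO 1 brings Cxcr2, Csf3r and Mmp9 to 0.99, 0.66 and 0.50, while Mpo stays between -4.24 and -2.98.

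Retnlg (chromosome 16, 48872621 to 48874496, plus strand), which encodes a secreted resistin-like protein abundant in mouse neutrophils, had 39, 5 and 4 counts in cKO 1 to 3, against 13, 0 and 9 counts in controls 1 to 3. cKO 1 stood 2.80 times above control 1, the next library (exact 95% interval 1.46 to 5.72, counting error only), and the other 2 cKO libraries lay within the control range. Pooled over the libraries of a group, cKO CPM was 2.27 times that of the controls (exact 95% interval 1.35 to 3.95, counting error only), and 0.632 times without cKO 1. Its paralogs in the resistin-like family are close enough that the assignment of reads is uncertain.

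Camp and Ltf, genes of the specific granules, did not follow the receptors. Camp (chromosome 9, 109847379 to 109849617, minus strand) encodes cathelicidin, the precursor of an antimicrobial peptide that epithelial cells also make, and had 8, 8 and 3 counts in cKO 1 to 3, against 11, 1 and 15 counts in controls 1 to 3. Ltf (chromosome 9, 111019271 to 111042767, plus strand) encodes lactoferrin, an iron-binding protein that glandular epithelia also secrete, and had 4, 9 and 0 counts in cKO 1 to 3, against 10, 1 and 2 counts in controls 1 to 3. The pooled ratio of cKO to control was 0.733 for Camp (exact 95% interval 0.385 to 1.37) and 1.04 for Ltf (exact 95% interval 0.445 to 2.44), so at this depth no difference was detectable. A count of 0 still allows up to 3 counts by a fixed one-sided limit, which is 0.142 to 0.179 CPM in these libraries. The exact two-sided 95% interval reaches higher, to 0.193 CPM for Ltf in cKO 3. Intervals and this limit cover counting error only.

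Within cKO 1 these transcripts were scarce beside the receptors. There were 1.07 Camp counts per 100 Csf3r counts in cKO 1 (exact 95% interval 0.460 to 2.12), 10 in cKO 2 and 1.60 in cKO 3, against 9.32, 2.22 and 16.9 in controls 1 to 3. For Ltf the figures were 0.535, 11.3 and 0 per 100 in cKO 1 to 3, against 8.47, 2.22 and 2.25 in controls 1 to 3. Retnlg stood at 5.21, 6.25 and 2.14 per 100 in cKO 1 to 3, against 11, 0 and 10.1 in controls 1 to 3. Mmp9, by contrast, was close to the receptor in 4 libraries, with 126, 189 and 65.8 per 100 in cKO 1 to 3 and 110, 127 and 120 per 100 in controls 1 to 3. The plot of counts relative to Csf3r shows these proportions with their intervals.

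**Figure D3:**
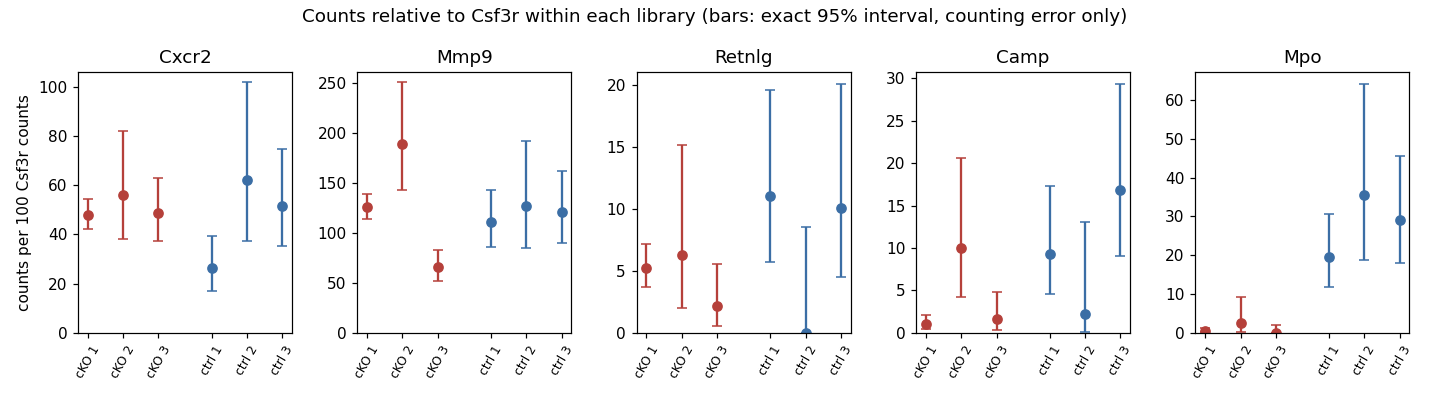
Counts of 5 genes per 100 counts of Csf3r in the same library (y axis, linear, own scale), for cKO 1 to 3 (red, left) and controls 1 to 3 (blue, right), with exact 95% intervals that cover counting error only. Mpo stands at 0 to 2.5 in the cKO libraries and at 19.5 to 35.6 in the controls, and its intervals do not meet between the groups.

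Ly6g (chromosome 15, 75155240 to 75159126, plus strand), the surface antigen by which mouse neutrophils are usually sorted, was listed at 0 in all 3 cKO libraries and at 0, 1 and 2 counts in controls 1 to 3. It therefore gave no signal in cKO 1, the library with the highest Cxcr2 and Csf3r. Ly6g lies in a cluster of close paralogs, and whether reads were lost between them was not tested. Other neutrophil genes were read beside it. S100a8 and S100a9, the calprotectin subunits that stressed keratinocytes also make, were at 186 and 166 CPM in cKO 1. They were at 15.9 and 20.2 CPM in cKO 2 and 27.5 and 26.5 CPM in cKO 3, against 37.9 and 30.9 CPM in control 1, 1.54 and 1.24 CPM in control 2 and 4.01 and 3.87 CPM in control 3. Cxcr1 had 7, 1 and 0 counts in cKO 1 to 3, against 0, 0 and 1 in controls 1 to 3, while the specific granule gene Ngp had 0, 1 and 0 counts in cKO 1 to 3 and 0 in every control.

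The early granule gene Mpo was lower in every cKO library than in every control. Mpo (ENSMUSG00000009350, chromosome 11, 87793581 to 87804413, plus strand) encodes myeloperoxidase, which forms hypochlorous acid in the phagosome. It had 3, 2 and 0 counts in cKO 1 to 3, against 23, 16 and 26 counts in controls 1 to 3. The CPM were 0.167, 0.111 and 0 in the cKO libraries and 1.37, 0.824 and 1.23 in the controls. Means were 0.0926 ± 0.0850 CPM in cKO and 1.14 ± 0.283 CPM in control libraries (SD, n = 3 each). Pooled over libraries the controls were 12.5 times higher than the cKO (exact 95% interval 5.08 to 39.7, counting error only). The log2 fold change was -3.55 in edgeR (SE 0.70; unadjusted p = 0.000957, adjusted p = 0.448, exact permutation p = 0.1).

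The call of Mpo depended on the test and on the filter. Mpo had passed the filter through the control libraries only, so its tests are not independent of its low cKO values. With no filter beyond 1 count, edgeR gave Mpo an adjusted p of 0.0994. DESeq2 gave a log2 fold change of -3.64 and an adjusted p of 0.0194, and the authors' deposited table gave -3.64 and an adjusted p of 0.0323, where 0.0737% of genes with a value were lower. In DESeq2 fits that left out 1 library, chosen after seeing the data, the adjusted p lay between 0.0616 and 0.289, so the call was lost without any of cKO 1, cKO 2, cKO 3, control 1 or control 3. DESeq2 gave no adjusted p without control 2. Without cKO 1, the library with the high receptor levels, the edgeR log2 fold change of Mpo was -4.24 (SE 0.88). Per 100 Csf3r counts, Mpo stood at 0.401, 2.5 and 0 in cKO 1 to 3, against 19.5, 35.6 and 29.2 in controls 1 to 3.

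The table places 1 other gene over Mpo, the antisense gene Gm11505, and it had 0 counts in every library. The nearest protein-coding neighbours, Lpo and Tspoap1, did not share the direction beyond their spread. Lpo measured 0.445, 0.388 and 0.680 CPM in cKO 1 to 3, against 0.417, 0.515 and 0.236 CPM in controls 1 to 3, too low for the test. Tspoap1 had a log2 fold change of -0.40 (SE 0.42, adjusted p = 0.997 in edgeR).

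Elane (chromosome 10, 79886247 to 79888215, plus strand), the gene of neutrophil elastase, had 2, 1 and 2 counts in cKO 1 to 3, against 3, 6 and 2 counts in controls 1 to 3. The controls were 2.11 times higher (exact 95% interval 0.677 to 7.76), so no difference was detectable at this depth. Prtn3, which encodes proteinase 3 of the same granules, had 8, 7 and 3 counts in cKO 1 to 3 and 8, 15 and 4 counts in controls 1 to 3. Ctsg, the gene of cathepsin G, which mast cells also make, measured 2.34, 2.72 and 2.72 CPM in cKO 1 to 3, against 3.04, 2.83 and 4.48 CPM in controls 1 to 3 (log2 fold change -0.41, SE 0.29, adjusted p = 0.995 in edgeR). Ms4a3 and Fcnb, genes of marrow precursors, had 0 counts in every library. Of 11 genes listed for early granules and precursors, 7 were tested, and edgeR and DESeq2 each called 0. At unadjusted p under 0.05, 1 of the 7 was above (3.38% of all genes) and 0 were below (1.95%). Their median log2 fold change was 0.25, against -0.01 over all genes tested, and it turned to -0.37 over 9 genes with no filter. It was 0.05 without control 2 and 0.51 without control 1. Of the 7, Ctsc, Serpinb1a and Srgn had control means of 106, 54.5 and 40.1 CPM, against 1.14 CPM for Mpo. Their cells of origin were not tested, so the median cannot be read as one of early granule cells alone.

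Levels could be ordered between genes only per gene length, in the deposited FPKM (fragments scaled to gene length and library size). In cKO libraries mean FPKM ran from Mmp9 (6.27 ± 7.25, SD, n = 3) through Csf3r (5.12 ± 5.51), Cxcr2 (2.95 ± 3.08), Retnlg (1.48 ± 1.86), Camp (0.457 ± 0.217) and Mmp8 (0.433 ± 0.180) to Elane (0.0914 ± 0.0308), Ltf (0.0692 ± 0.0721) and Mpo (0.0268 ± 0.0246), with Ly6g at 0. Among neighbours in that order only Mmp8 and Elane had ranges that did not meet. In controls the order was Mmp9 (1.47 ± 0.683, SD, n = 3), Csf3r (1.24 ± 0.658), Retnlg (0.671 ± 0.652), Camp (0.619 ± 0.480), Cxcr2 (0.593 ± 0.122), Mpo (0.331 ± 0.0840), Elane (0.195 ± 0.108), Mmp8 (0.118 ± 0.0770), Ltf (0.0713 ± 0.0874) and Ly6g (0.0512 ± 0.0499). There only Cxcr2 and Mpo had ranges that did not meet. Mpo thus held rank 9 of the 10 genes in the cKO and rank 6 in the controls, while Cxcr2 held rank 3 in the cKO and rank 5 in the controls.

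Of 22 other receptor and surface genes of neutrophils, 16 were tested, and edgeR called 0. Of the 16, 9 were highest in cKO 1 (13.8% of all tested genes). At an unadjusted p under 0.05 there were 7 higher (3.38% of all genes) and 0 lower (1.95%). DESeq2 called 2 higher, Hcar2 and Fcgr4 (0.387% of all genes). Hcar2 was at 56.0, 45.1 and 56.5 CPM in cKO 1 to 3, against 32.9, 34.8 and 35.2 CPM in controls 1 to 3. It was not highest in cKO 1, and the cells that made it were not identified. The median log2 fold change was 0.79, and 15 of 16 were positive (47.8% of all tested genes). Fpr2, a formyl peptide receptor, was at 4.79, 0.443 and 1.88 CPM in cKO 1 to 3, against 0.596, 0 and 0.0472 CPM in controls 1 to 3. Fcgr4, an Fc receptor shared with monocytes, was highest in cKO 3, with 5.12, 0.887 and 11.7 CPM in cKO 1 to 3, against 0.834, 0.360 and 0.330 CPM in controls 1 to 3. Without cKO 1 the median of the 16 genes was 0.64 and 12 were positive. At an unadjusted p under 0.05, 3 were then higher (1.82% of all genes).

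Of 27 further genes listed for late granules and the neutrophil cytosol, 25 were tested. Of the 25, 17 were highest in cKO 1 (13.8% of all tested genes). The median log2 fold change was 1.18 and 22 were positive (47.8% of all tested genes). edgeR called 0 of the 25, while unadjusted p under 0.05 gave 9 higher (3.38% of all genes) and 0 lower (1.95%). DESeq2 called 2 higher, Slfn4 and Slpi (0.387% of all genes). Slpi, also an epidermal antimicrobial gene, was at 40.8, 10.5 and 8.52 CPM in cKO 1 to 3, against 5.24, 3.19 and 4.25 CPM in controls 1 to 3. The share of its transcripts from neutrophils was not tested. Slfn4, a Schlafen gene of myeloid cells, was at 33.3, 7.87 and 13.1 CPM in cKO 1 to 3, against 6.02, 2.42 and 1.93 CPM in controls 1 to 3. Stfa2, a stefin protease inhibitor gene of neutrophils and of skin, was at 5.68, 0.610 and 1.10 CPM in cKO 1 to 3, against 0.596, 0.206 and 0.142 CPM in controls 1 to 3. Chil3, a chitinase-like gene of neutrophils and macrophages, was at 12.1, 1.55 and 9.78 CPM in cKO 1 to 3, against 3.22, 0.463 and 1.13 CPM in controls 1 to 3. Stefin genes are near-identical copies, so their reads may have been split between them. Without cKO 1 the median was 0.77 and 2 genes were higher at an unadjusted p under 0.05 (1.82% of all genes).

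Genes of the ligands that recruit or sustain neutrophils varied in which library was highest. Of 23 listed, 13 were tested, and edgeR and DESeq2 each called 0. Of the 13, 7 were highest in cKO 1 (13.8% of all tested genes). Unadjusted p under 0.05 gave 2 higher (Alox5ap and Il1f9, against 3.38% of all genes) and 0 lower (1.95%). The median log2 fold change was 0.41, with 11 of 13 positive (47.8% of all tested genes). It was 0.19 without cKO 1, with 8 positive and 0 higher at unadjusted p under 0.05 (1.82% of all genes), and 0.19 without control 2. The summed level was 856, 693 and 740 CPM in cKO 1 to 3, against 802, 355 and 560 CPM in controls 1 to 3, so control 1 exceeded cKO 2 and cKO 3. Cxcl2, a CXCR2 ligand, was at 29.5, 5.76 and 7.16 CPM in cKO 1 to 3, against 9.41, 0 and 0.519 CPM in controls 1 to 3. Cxcl1, another CXCR2 ligand, was at 9.18, 0.443 and 0.889 CPM in cKO 1 to 3, against 1.97, 0.309 and 0.944 CPM in controls 1 to 3, and its log2 fold change of 1.72 (SE 1.10) was -0.66 without cKO 1. Cxcl5, a CXCR2 ligand named after its values were seen, was too unevenly detected to be tested, with 447, 3 and 12 counts in cKO 1 to 3 and 8, 0 and 6 counts in controls 1 to 3. Csf3, the ligand of Csf3r, also named after its values were seen, had 9, 0 and 7 counts in cKO 1 to 3, against 2, 0 and 0 counts in controls 1 to 3. Control 2 was lowest or level with the lowest for each of these 4 ligand genes, as it was for Cxcr2, Csf3r, Mmp8, Mmp9, Retnlg and Camp.

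**Figure D4:**
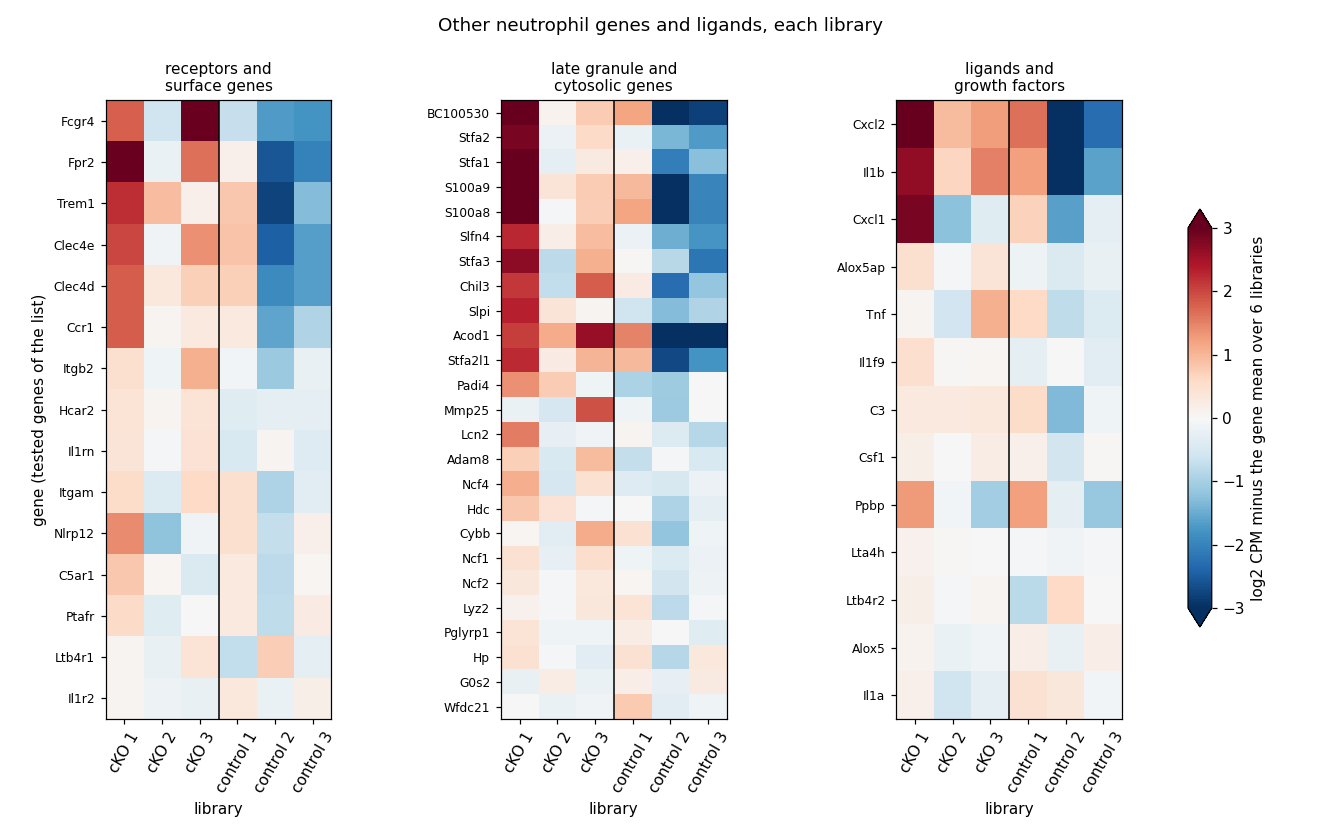
Log2 CPM of tested genes minus each gene's mean over the 6 libraries (colour, saturated beyond ±3), for other neutrophil receptor and surface genes, other late granule and cytosolic genes, and ligands and growth factors (rows), with the 3 cKO libraries left of the 3 controls (columns). In the middle panel 17 of the 25 genes are highest in cKO 1, and in the right panel 7 of the 13. Others peak in cKO 3 or in a control, and the share highest in cKO 1 over all tested genes is 13.8%.

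Genes outside the set with the nearest profile were found by the root mean square difference of log2 CPM, centred on each gene's mean, from the mean profile of the 5 tested members over the 6 libraries. Of 15882 candidates with a mean of at least 1 CPM, the 8 nearest were Chil1, Adam12, Cxcr4, S100a7a, Mmp3, Inhba, Tnc and Vcan, at 0.221 to 0.325 log2 units. Chil1, a chitinase-like gene, was at 265, 55.3 and 66.2 CPM in cKO 1 to 3, against 80.8, 37.5 and 93.4 CPM in controls 1 to 3. Tnc, the gene of the matrix protein tenascin C, was at 311, 109 and 118 CPM in cKO 1 to 3, against 83.1, 46.9 and 77.9 CPM in controls 1 to 3. The mean profile itself lay at 1.66 in cKO 1 and between -0.97 and 0.11 in the other libraries, and Mpo was the member farthest from it, at 1.81 log2 units, against 0.52 to 0.61 for the other 4. Because Mpo pulls that mean away from the others, the profile of Cxcr2 and Csf3r alone was also used, a choice made after the values were seen. Its 8 nearest genes were Timp1, Slpi, Ifitm1, Stfa2, Osm, Tnc, Sprr2d and Gjb2, at 0.331 to 0.509 log2 units, and Tnc was the 1 gene in both sets of 8. Timp1, which encodes an inhibitor of matrix metalloproteinases, was at 81.4, 14.6 and 14.9 CPM in cKO 1 to 3, against 14.2, 7.26 and 10.7 CPM in controls 1 to 3. The profile of Mpo was used in the same way, also after the values were seen. Nearest to it were A4gnt, Serpinb1c and Hsd17b13, at 0.613, 0.695 and 0.749 log2 units. Its 8 nearest held no gene of the neutrophil lists, but Elane and Prtn3 lay below 1 CPM and were not candidates. Which cells made the Mpo transcript was not tested.

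Markers of other cells moved with cKO 1 in part, and their part in the results was not tested. Of all tested genes, 13.8% were highest in cKO 1 and 47.8% had a positive log2 fold change, and DESeq2 called 0.387% higher. The 6 stress keratinocyte genes, induced in wounded epidermis, summed to 1525, 406 and 409 CPM in cKO 1 to 3, against 180, 233 and 214 CPM in controls 1 to 3, and all 6 were highest in cKO 1. Of 13 macrophage and monocyte genes, 8 were highest in cKO 1, with sums of 1002 to 1513 CPM in cKO libraries and 645 to 1249 CPM in controls. All 13 were tested, 11 were positive with a median log2 fold change of 0.40, and DESeq2 called 1, Ly6c2, a gene of inflammatory monocytes. The 9 genes listed for endothelial adhesion, which include the leukocyte gene Selplg, were all positive with a median of 0.40. They summed to 479 to 518 CPM in cKO libraries and 306 to 568 CPM in controls. Keratinocyte genes had a median of 0.15 over 10 genes, with sums of 12664 to 16504 CPM in cKO libraries and 8096 to 18773 CPM in controls.

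Red cell and platelet genes were not highest in cKO 1. Red cell genes, 6 of 8 tested with a median of 0.64, were lowest among the cKO libraries in cKO 1, at 206 CPM, against 526 in cKO 2 and 393 in cKO 3, and they spanned 133 to 420 CPM in controls. Platelet genes summed to 148, 120 and 89.1 CPM in cKO 1 to 3 and 71.8 to 155 CPM in controls (3 of 8 tested, median -0.08, Gp1bb and Gp6 at 0 in every library). Eosinophil genes had 2 of 8 tested (median 0.70, sums of 8.26 to 13.2 CPM in cKO libraries and 5.40 to 11.4 CPM in controls), and their granule gene Epx was at 0 in every library. Mast cell genes (median 0.19 over 9) summed to 514 to 578 CPM in cKO libraries and 319 to 611 CPM in controls. Dendritic and Langerhans cell genes (0.56 over 10), T cell genes (0.50 over 10) and B cell genes (0.36 over 3) had 0 members highest in cKO 1. Without cKO 3 these medians were 0.10, -0.31 and -0.28, and the B cell median was -0.04 without control 2. cKO 3 stood apart for dendritic genes, with sums of 1736, 1861 and 4135 CPM in cKO 1 to 3 and 1530 to 1913 CPM in controls. It also stood apart for T cell genes, with 47.4, 43.5 and 95.9 CPM in cKO 1 to 3 and 50.6 to 55.5 CPM in controls. B cell genes summed to 32.6, 38.4 and 60.2 CPM in cKO 1 to 3 and 24.0 to 59.0 CPM in controls. In these 11 lists edgeR called 0 genes. At unadjusted p under 0.05 there were 6 higher stress keratinocyte genes and 2 higher genes of the endothelial adhesion list, Selplg and Selp. There were also 1 macrophage, 1 dendritic and 1 T cell gene higher, and 1 T cell gene lower. Over all genes the shares were 3.38% higher and 1.95% lower. DESeq2 called Ly6c2 and Krt16 alone, both higher (0.387% of all genes).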

How the data were processed

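Per the labels' protocols, ear skin RNA was isolated in TRIzol and libraries were prepared using a NEBNext Ultra kit. The submitters' processing notes name HISAT2, HTSeq and mm10. Versions, parameters and the strand setting are not given in the sources used here. The authors deposited raw whole-number counts per gene, per the file headers and the values. They also deposited FPKM, per the file headers, whose library size is 97.6% to 104% of the total count. The deposited table further holds the authors' normalized mean counts per group (a signal value, not used here), log2 fold changes, and p-values and adjusted p-values from a test that is not named.

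Counts of 3 Ufl1 cKO and 3 control libraries passed filterByExpr and TMM scaling and entered edgeR 4.0.16 (robust quasi-likelihood, genotype as sole term, R 4.3.3), with Benjamini-Hochberg adjustment over 17318 genes. Each SE is the absolute log2 fold change over the square root of F. Log2 CPM used a prior count of 2. Intervals are exact, at 95%. For FPKM the pseudocounts were 1 and 0.1, with a filter on a mean FPKM of at least 0.5, and a fold change on that scale understates low genes. Alternatives were RLE and upper-quartile scaling, other filters, DESeq2 1.42.0, limma 3.58.1 (voom with and without weights, trend on FPKM), a replicate block, and each library left out. The fits were tested on simulated counts of 17318 genes, with 50 genes planted at each fold change. In that simulation 43 of the 171 DESeq2 calls were false, against 15 of the 132 edgeR calls. Both shares were above the adjusted p threshold of 0.05, so DESeq2 calls in particular are to be read with caution. At a planted fold of 2, DESeq2 recovered 58% and edgeR 42%, and at a fold of 4 each recovered 94%. Genes were planted only where the mean was above 1 CPM, which leaves out levels such as those of Mpo and Mmp8. No simulated library was set apart as cKO 1 was. The recovered shares therefore do not give the power for the members. The members and gene lists were chosen with earlier results of these data known. All 10 members are named, as are up to 8 genes of each list of other neutrophil genes and ligands and up to 4 of the others, picked from those with the smallest p. The genes S100a8, S100a9, Cxcr1, Ngp, Prtn3, Gm11505, Gp1bb, Gp6, Ms4a3, Fcnb, Cxcl5, Csf3, Lpo, Tspoap1, Epx, Timp1, Ifitm1, Osm, Sprr2d, Gjb2, A4gnt, Serpinb1c and Hsd17b13 were named after their values were seen. For Il36g the symbol Il1f9 was used. Promoter sequences are from RefSeq, GRCm38.p6. 1 gene of the receptor list counts in its totals and is not reported here by name.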

Additional observations from a re-analysis of the deposited data

How the results depend on the processing

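The log2 fold changes of Cxcr2, Csf3r, Mmp8, Mmp9 and Mpo kept their direction under every alternative in which the gene was measured. Over those alternatives the adjusted p ranged from 0.00160 to 0.9999 for Cxcr2, 0.0151 to 0.9999 for Csf3r, 0.166 to 0.9999 for Mmp8, 0.0450 to 0.9999 for Mmp9 and 0.0194 to 0.9998 for Mpo. The number of genes called over the whole table, 2 higher and 1 lower, became 18 and 7 with no filter beyond 1 count, 67 and 24 in DESeq2, 19 and 7 in limma-voom with quality weights and 10 and 2 with the replicate block. It was 0 and 0 in limma-voom and in limma-trend on FPKM. Leaving out 1 library gave 0 to 2 higher and 0 to 2 lower genes in edgeR, and in DESeq2, in fits added after seeing the data, 24, 139 and 28 higher and 15, 12 and 17 lower without cKO 1, 2 or 3, and 186, 90 and 33 higher and 67, 37 and 14 lower without control 1, 2 or 3. The members called stayed at 0 higher and 0 lower, except for 1 lower (Mpo) in DESeq2, and in DESeq2 fits that left out 1 library between 0 and 2 were called higher and 0 lower. The median log2 fold change of the members tested, 2.05, was 0.57 with no filter (10 genes) and 0.18 for log2(FPKM + 1) with no filter. It ranged from 0.66 (without cKO 1) to 2.48 with 1 library left out, both in edgeR and in DESeq2. The cause was not tested, apart from the added genes in the fits without a filter.

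Whether the replicate numbers pair the libraries was not settled. Deviations from the group means correlated at 0.216, -0.043 and -0.038 for numbers 1 to 3, and only number 1 correlated best with its own number. With the replicate block 0 members were called, at adjusted p of 0.315 to 0.689 in edgeR. The SE fell from 0.79 to 0.35 for Csf3r, from 0.80 to 0.43 for Mmp9 and from 0.72 to 0.53 for Cxcr2. For Mmp8 it fell from 0.59 to 0.54, and for Mpo it rose from 0.70 to 0.76. Depth limits Elane, Ly6g, Retnlg, Camp and Ltf, which had 0 to 39 counts per library. Of the marker lists, the median changed sign for T cell genes (-0.31 without cKO 3, -0.13 with quality weights), B cell genes (-0.28 without cKO 3, -0.04 without control 2, -0.18 with quality weights), early granule genes (-0.37 and -0.03 in the fits without a filter) and platelet genes (0.02 without control 3). Leaving out control 2 gave 0.16 for macrophage, 0.07 for mast cell, 0.26 for endothelial and 0.32 for red cell genes, and leaving out control 1 gave 0.01 for keratinocyte genes.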
